A study of Canis lupus familiaris with 20 samples.

Results

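The gene ENSCAFG00000017319, on chromosome 20 of the dog assembly CanFam3.1 from 49813686 to 49817040 on the plus strand, was followed across vertebral cartilage of affected and control dogs. It is 1 of 24580 genes in the deposited count table and 1 of the 14550 that passed the filter on low counts. It was selected on its own normalised counts in these 20 libraries, which earlier results had shown to be far lower in affected dogs at both ages, so its levels over the groups are a description and carry no test. The annotation gives it 5 exons with 2237 bases in all, of which the last exon, from 49815652 to 49817040, holds 1389 bases (62.1%). No other annotated gene overlaps it. The nearest gene ends 71671 bases before its start, and the next begins 13491 bases after its end, so an overlapping or antisense gene in this annotation does not share its reads.

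The working name of this gene was ACP5, given for its place on chromosome 20. The count table holds no gene names, and 0 of its 24580 identifiers were found in the RefSeq gene table of UU_Cfam_GSD, another dog assembly. That table lists 1 ACP5 gene, also on chromosome 20, which spans 2389 bases against 3355 bases for ENSCAFG00000017319, and positions of the assemblies were not compared. The name was therefore not tested, and the gene is called by its identifier here. For the same reason marker genes of cartilage, osteoclasts or other cells could not be looked up, and neither the tissue label nor an osteoclast source of the signal was tested.

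As background, ACP5 encodes tartrate-resistant acid phosphatase, an enzyme by which osteoclasts are commonly recognised in tissue sections. Osteoclasts are large cells of the monocyte lineage that dissolve mineralised matrix with acid and proteases. In the epiphysis of a growing vertebra, cartilage cells enlarge, the matrix around them mineralises, and vessels, resorbing cells and bone-forming cells then enter to build the secondary centre of ossification. Mucopolysaccharidosis VII (MPS VII) is a lysosomal storage disease in which the enzyme beta-glucuronidase, encoded by GUSB, is deficient and glycosaminoglycans are not fully degraded.

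Tissue came from the epiphysis of the T12 vertebra, with the cranial and caudal ends pooled per animal and the disc removed, and each animal gave 1 RNA sequencing library. The groups were MPS VII dogs at postnatal day 14, heterozygous control dogs at day 14, MPS VII dogs at day 9 and heterozygous control dogs at day 9, with 5 animals in each. MPS VII dogs were homozygous and controls heterozygous for the R166H missense mutation of GUSB, so every animal carried at least 1 mutant allele, and the disease is a naturally occurring one with no transgene. Controls were matched by litter according to the series' design, but the labels do not say which animals shared a litter or their sex. All animals were euthanised with sodium pentobarbital. Libraries held 15772761 to 28028365 counts, with 15772761 to 22471728 at day 14 and 21419930 to 28028365 at day 9, so depth and age went together.

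ENSCAFG00000017319 was among the most abundant transcripts of control cartilage and, per kilobase, still above 86.2% of tested genes in MPS VII at day 14 and 85.7% at day 9. In MPS VII at day 14 the libraries held 59.7, 38.4, 106.9, 44.0 and 39.2 CPM in the order of replicates 1 to 5, where CPM is the count per 1000000 of normalised library size. In controls at day 14 they held 2399, 2077, 2151, 2816.9 and 2073 CPM. Every control library stood above every MPS VII library, with MPS VII replicate 3 the highest of its group. A lack of overlap in this direction was met in 9.83% of all tested genes, and nothing is read from it here, since the gene was chosen for this difference.

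At day 9 the MPS VII libraries held 84.0, 94.5, 46.8, 33.4 and 28.3 CPM. The day 9 controls held 1251, 839, 943, 375 and 613 CPM. The genotypes were again apart, as they were in this direction in 2.82% of tested genes. Over both ages the lowest control library, day 9 replicate 4, was 3.51 times the highest MPS VII library, day 14 replicate 3.

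**Figure D1:**
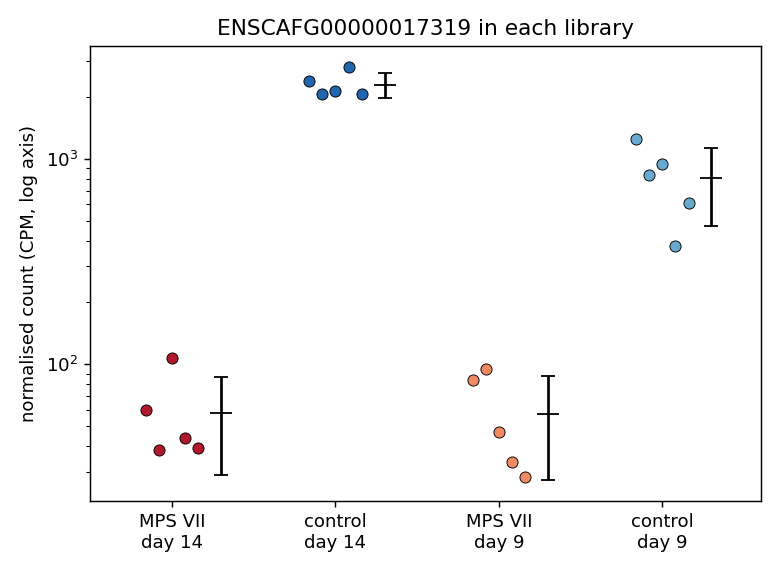
Normalised counts (CPM, log axis) of ENSCAFG00000017319 in the 20 libraries, 1 point per animal, with the mean and SD of each group of 5 beside the points. MPS VII libraries lie between 28.3 and 106.9 CPM at both ages, and controls between 2073 and 2816.9 CPM at day 14 and between 375 and 1251 CPM at day 9.

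The group means were 57.6 ± 28.9 CPM in MPS VII at day 14, against 2303 ± 316 CPM in controls, and 57.4 ± 30.1 CPM in MPS VII at day 9, against 804 ± 332 CPM in controls (SD, n = 5 each). The MPS VII mean was thus 2.50% of the control mean at day 14 and 7.14% of it at day 9. In the fit over all genes the log2 fold change of MPS VII over control was -5.32 ± 0.42 (SE) at day 14 and -3.81 ± 0.39 at day 9. Counted from the most negative of the 14550 tested genes, these values ranked 13 at day 14 and 4 at day 9. In bulk tissue, fewer cells that make a transcript and less transcript per cell cannot be told apart.

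With age the levels were 2.86-fold higher at day 14 than at day 9 in controls (log2 fold change 1.52 ± 0.36), and every day 14 control library stood above every day 9 control library. Of all tested genes, 20.2% showed such a lack of overlap upward. In MPS VII the means at day 14 and day 9 were nearly equal, with a log2 fold change of 0.01 ± 0.35, and the libraries of the 2 ages overlapped throughout. The SE leaves room for a moderate change in MPS VII in either direction, and leaving out 1 library at a time moved it between -0.32 (without MPS VII day 14 replicate 3) and 0.26 (without MPS VII day 9 replicate 2). The age change in MPS VII minus that in controls was -1.51 ± 0.50 on the log2 scale. Even the MPS VII dogs of day 14 lay below the younger controls of day 9, with a log2 fold change of -3.80 ± 0.39.

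From high to low, the order of the levels was control day 14, control day 9, MPS VII day 14 and MPS VII day 9, and the last pair did not differ beyond their spread. Per kilobase of exon, the scale on which genes can be compared, the means were 25.8 ± 12.9 in MPS VII and 1030 ± 141 CPM per kilobase in controls at day 14, and 25.7 ± 13.4 in MPS VII and 360 ± 148 CPM per kilobase in controls at day 9 (SD, n = 5 each). On that scale the gene ranked 2003 of 14550 in MPS VII and 41 in controls at day 14, and 2080 in MPS VII and 149 in controls at day 9. It therefore remained well detected in affected cartilage, with 5662 counts over the 5 MPS VII libraries of day 14 and 6625 over those of day 9, against 248679 and 97108 counts over the controls of the same ages. Its share of a control library was 0.270% ± 0.0549 at day 14 and 0.0722% ± 0.0369 at day 9.

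The spread between animals was wide except in the oldest controls. The coefficient of variation was 50.1% in MPS VII and 13.7% in controls at day 14, and 52.4% in MPS VII and 41.3% in controls at day 9. The SD of log2 CPM was 0.62 in MPS VII at day 14, 0.78 in MPS VII at day 9 and 0.66 in controls at day 9, where the median over all tested genes was 0.28, 0.34 and 0.21 in the same groups. In controls at day 14 it was 0.19, against a median of 0.21. The biological coefficient of variation that edgeR gave this gene was 0.379, larger than that of 82.8% of tested genes.

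Only 2 tested genes, this one included, had log2 fold changes as low or lower at both ages. The other, on chromosome 13 from 5552100, held 8 counts over the MPS VII libraries at day 14 and 2 at day 9. With a looser limit, a log2 fold change of -3 or lower in MPS VII at both ages was found in 9 tested genes, this one included. That limit was chosen after the values were seen. The 9 genes lay on chromosomes 1, 5, 10, 13, 14, 20, 24 and 33, with 2 of them on chromosome 24. The only other abundant one was ENSCAFG00000009905, on chromosome 24 from 33273918 to 33281411, with 113 CPM in MPS VII against 1663 CPM in controls at day 14, and 49.9 CPM in MPS VII against 592 CPM in controls at day 9. Its log2 fold changes were -3.88 ± 0.53 at day 14 and -3.57 ± 0.53 at day 9. The gene on chromosome 5 from 28978383 to 28986863 stood at 1.26 CPM in MPS VII and 40.0 CPM in controls at day 14, and at 1.20 CPM in MPS VII and 12.1 CPM in controls at day 9. The other 6 had at most 14.9 CPM in any group. Each held at most 52 counts over the MPS VII libraries of either age, so their fold changes rest on few MPS VII counts.

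The genes whose pattern over the 20 libraries was most like that of ENSCAFG00000017319 were ranked by Pearson r of log2 CPM among 12362 genes with at least 2 CPM in a group. The measure follows mainly the order of the 4 groups, and the libraries share their depth and scaling, so r is given as a description. The 10 nearest genes had r of 0.95 to 0.97, and 44 genes reached 0.9. Nearest was a gene on chromosome 29 from 32336302 to 32380452, with r of 0.97 and Spearman's rho of 0.97. Its means were 1.47 CPM in MPS VII and 74.6 CPM in controls at day 14, and 1.66 CPM in MPS VII and 11.5 CPM in controls at day 9. In all 10 genes the MPS VII libraries lay below the control libraries without overlap at both ages, as their choice by likeness would favour. Of all 14550 tested genes, 146 did so.

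Of the 10, the genes on chromosome 24 from 33797121 to 33799731 and from 33273918 to 33281411 began 523 kb apart, and 2 others lay on chromosome 17, from 34586716 and from 51623693. The gene on chromosome 13 from 5552100 to 5559286 held 8 counts over the MPS VII libraries and 431 over the controls at day 14, and 2 over the MPS VII libraries and 92 over the controls at day 9, so it was close to the detection limit in MPS VII. Leaving it out, the other 9 had log2 fold changes of -5.68 to -1.99 for MPS VII over control at day 14 and of -3.67 to -1.35 at day 9. The -3.67 ± 0.60 (SE) was of the gene on chromosome 24 from 33797121. That gene held 14 counts over the MPS VII libraries at day 14 and 18 at day 9. A gene on chromosome 6 from 40425259 held 12 and 14 counts there, so both were also near the detection limit in MPS VII. In controls all 9 were higher at day 14 than at day 9, by 0.57 to 2.70, while in MPS VII the same age change ran from -0.21 to 1.18. The age change in MPS VII minus that in controls was below 0 in each of the 9. The choice by likeness favoured this sign, and the rise in controls, in advance. The difference ran from -2.90 ± 0.52 (SE) to -0.31 ± 0.67, so not every value lay beyond its error.

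Genes with the mirror image of this pattern were also present, and 84 had r of -0.9 or lower. The farthest, with r of -0.98, lay on chromosome 30 from 17887781 to 17972687 and held 37.9 CPM in MPS VII against 7.57 CPM in controls at day 14, and 35.6 CPM in MPS VII against 12.3 CPM in controls at day 9. The next 2 lay on chromosome 5 from 42178920 and on chromosome 6 from 11055519, with r of -0.97 each.

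**Figure D2:**
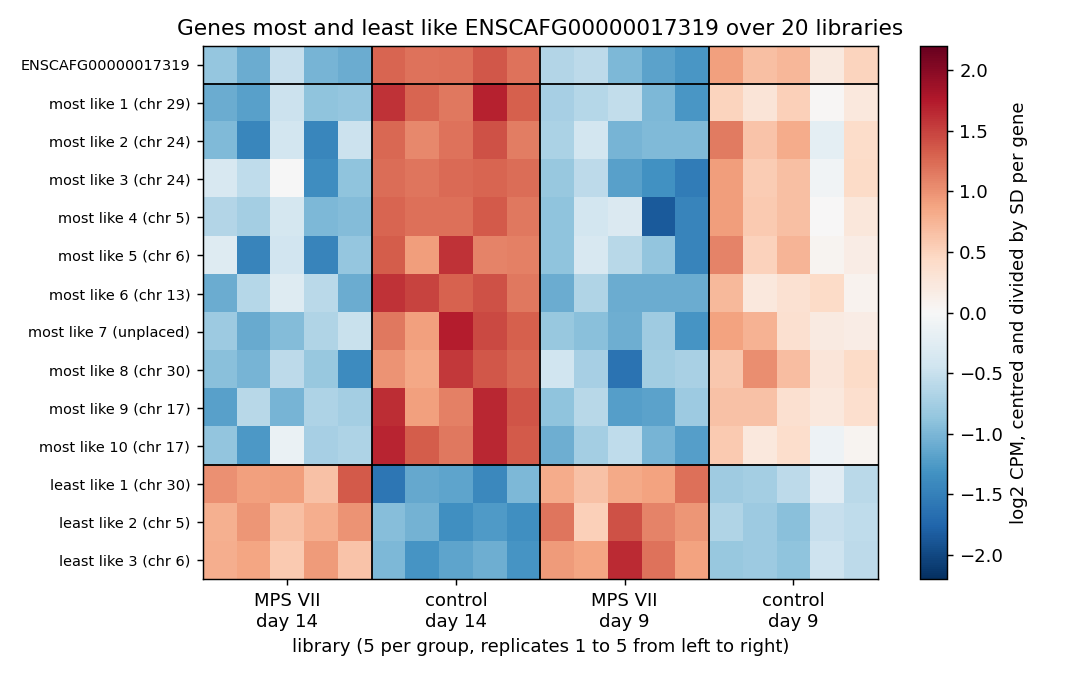
Log2 CPM of ENSCAFG00000017319 (top row), the 10 genes most like it and the 3 least like it, each centred and divided by its SD over the 20 libraries shown as columns. Group means of the 10 most like genes, with r of 0.95 to 0.97, are highest in the controls of day 14. These genes are low in all MPS VII libraries, and for some of them the control libraries of day 14 and day 9 overlap. The 3 least like genes run the other way.

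The variation between animals of the same group was then used, which is not what the gene was chosen for. Each group's mean was subtracted from log2 CPM before r was computed over the 20 libraries. These values share library and depth, so they too are a description. The gene that varied most closely with ENSCAFG00000017319 inside the groups was ENSCAFG00000009905 on chromosome 24, the third nearest over all libraries, with r of 0.87 and rho of 0.85 after the group means were removed. At day 9 it held 65.1, 97.4, 36.3, 29.4 and 21.2 CPM in MPS VII replicates 1 to 5, and 1016, 582, 688, 214 and 461 CPM in control replicates 1 to 5. In each genotype at that age these animals stand in the same order as for ENSCAFG00000017319. At day 14 it held 140, 99.9, 236, 28.1 and 59.9 CPM in MPS VII, and 1657, 1516, 1707, 1785 and 1653 CPM in controls. There MPS VII replicate 3 was again the highest for both genes, but replicate 4 was the lowest for ENSCAFG00000009905 and not for ENSCAFG00000017319.

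A gene on chromosome X from 17830688 to 18035505 came next, with r of 0.86 and rho of 0.88. It averaged 22.1 CPM in MPS VII and 198 CPM in controls at day 14, and 12.3 CPM in MPS VII and 50.7 CPM in controls at day 9. The gene that followed, on chromosome 21 from 33661030 to 33684817 with r of 0.85, differed little between genotypes: its mean was 18.1 CPM in MPS VII against 19.0 CPM in controls at day 14, and 11.99 CPM in MPS VII against 12.5 CPM in controls at day 9. The last 2 of the 5, on chromosome 5 from 80352534 and on chromosome 10 from 62145117, had r of 0.80 each. In controls at day 14 alone, r was -0.12, -0.09 and 0.25 for the genes on chromosomes 21, 5 and 10. In the other groups it was 0.50 to 0.97 for these genes, so their pooled r does not describe the controls of day 14. For ENSCAFG00000009905 and the gene on chromosome X, r in controls at day 14 was 0.72 and 0.75. The lowest r inside the groups was -0.80, for a gene on chromosome 10 from 34374333 to 34730633. It was followed by genes on chromosome 36 from 30487822 and on chromosome 20 from 32077281, both with r of -0.79.

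All 10 genes most like ENSCAFG00000017319 over the 20 libraries had r above 0 inside the groups, from 0.21 to 0.87. Their median was 0.69, where the median over all 12362 genes was -0.01. The r that chose them already holds the variation inside the groups, so values above 0 were favoured in advance. In a single group the sign could differ. For the gene on chromosome 17 from 34586716, r was -0.71 in MPS VII at day 14 and 0.49 to 0.77 in the other groups. Inside the groups 48 genes had r of 0.7 or higher and 39 had r of -0.7 or lower. Ranking by Spearman's rho in place of Pearson's r kept 4 of the 10 genes over all libraries and 2 of the 5 inside the groups, so the membership of both lists depends on the measure. Leaving out 1 library at a time kept 8 to 10 of the 10 and 2 to 5 of the 5, with 2 kept without MPS VII day 9 replicate 3.

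**Figure D3:**
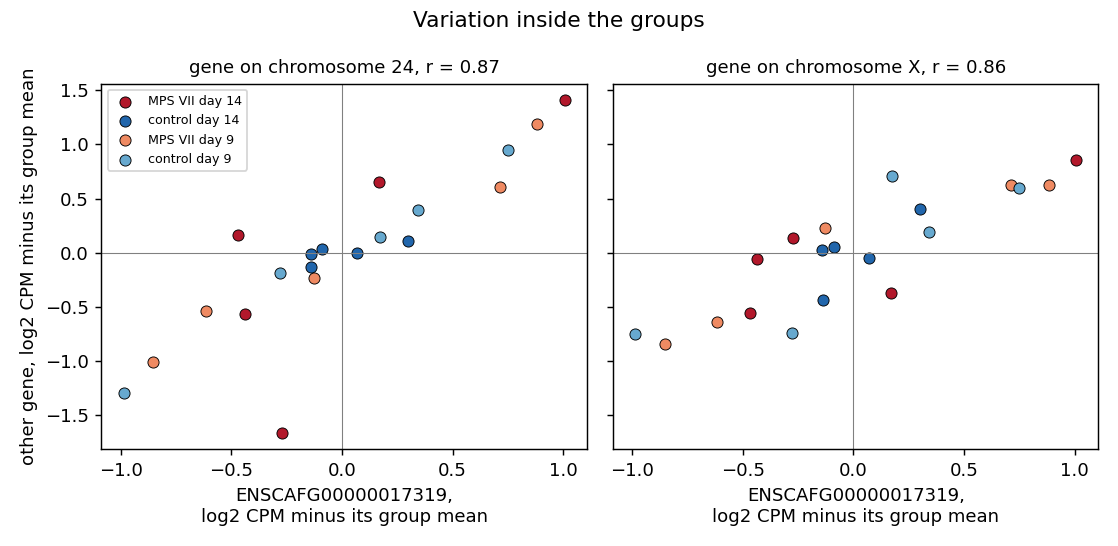
Deviation of log2 CPM from the group mean in each of the 20 libraries, for ENSCAFG00000017319 on the horizontal axis and 2 other genes on the vertical axes. Points rise together for the gene on chromosome 24 (r of 0.87) and the gene on chromosome X (r of 0.86), and the controls of day 14 spread least along the horizontal axis (SD of 0.19).

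Other strongly changed genes of these dogs were set beside it. ENSCAFG00000002753, on chromosome 14 from 36918913 to 36947518, was 815 CPM in MPS VII and 9.24 CPM in controls at day 14, and 303 CPM in MPS VII and 2.31 CPM in controls at day 9. Its r with ENSCAFG00000017319 was -0.86 over all libraries and -0.02 inside the groups. Of 3 genes on chromosome 32 between 11051535 and 11362391, the middle one had the closest pattern, with r of 0.91 over all libraries and 0.65 inside the groups. The log2 fold changes of MPS VII over control in these 3 genes, in the order of their position, were -5.39, -4.64 and -2.25 at day 14, and 1.39, -1.63 and 0.22 at day 9. The 1.39 of the first gene rested on MPS VII day 9 replicate 3, with 60.0 CPM against 1.52 to 8.67 CPM in the other 4 animals of its group, and it was -0.44 without that library, an alternative chosen after the values were seen. For ENSCAFG00000017319 the log2 fold changes were -5.32 at day 14 and -3.81 at day 9. The differences between genes were not tested.

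The 20 tested genes beside ENSCAFG00000017319 on chromosome 20, 10 on each side, were taken by position alone, and their values were not used in choosing it. At day 14, 2 of the 20 (10%) passed the threshold of 0.05 on the adjusted p of edgeR's quasi-likelihood test, both higher in MPS VII, where 22.0% of all tested genes passed, 11.3% upward and 10.7% downward. At day 9, 1 of the 20 (5%) passed, also higher, where 8.38% of all tested genes passed, 6.18% upward and 2.21% downward. No neighbour passed as lower in MPS VII by edgeR. At an unadjusted p under 0.05, 1 neighbour was lower at each age. The share of all tested genes at that limit was not counted, so nothing is read from this. DESeq2 called 1 neighbour lower at day 14 and 0 at day 9. The downward share of its calls over all tested genes was not counted, so nothing is read from this either. In either direction DESeq2 called 3 of the 20 neighbours at day 14 and 1 at day 9. Of all tested genes it called 3582 at day 14 and 1547 at day 9, in either direction. The median log2 fold change of the 20 was 0.07 at day 14 and 0.04 at day 9, against 0.03 and 0.02 over all tested genes, with a range of -0.51 to 1.06 at day 14 and of -0.54 to 0.70 at day 9.

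The neighbour with the largest change lay 368 kb before ENSCAFG00000017319, from 49445696 to 49461722. It stood at 282 CPM in MPS VII against 135 CPM in controls at day 14 (log2 fold change 1.06, edgeR adjusted p = 6.2e-05), and at 372 CPM in MPS VII against 228 CPM in controls at day 9 (log2 fold change 0.70, edgeR adjusted p = 0.00718). The other called neighbour, from 49473392 to 49493106, held 10.8 CPM in MPS VII and 7.05 CPM in controls at day 14 (log2 fold change 0.61, edgeR adjusted p = 0.0105). At day 9 it held 9.14 CPM in MPS VII and 8.96 CPM in controls and did not pass (edgeR adjusted p = 0.936).

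The genes nearest to ENSCAFG00000017319 had low levels. The next tested gene after it, from 49830532 to 49837477, averaged 0.618 CPM in MPS VII and 0.544 CPM in controls at day 14, and 0.516 CPM in MPS VII and 0.563 CPM in controls at day 9. The one after that, from 49849200 to 49866964, missed the threshold at day 14 (edgeR adjusted p = 0.0519, log2 fold change -0.51), and passed the threshold under 5 of the alternatives tried. The tested gene before it, from 49625887 to 49742014, averaged 8.10 CPM in MPS VII and 6.70 CPM in controls at day 14 and did not pass at either age (edgeR adjusted p = 0.253 and 0.814). With age, 4 of the 20 neighbours changed in MPS VII (3 lower at day 14, 1 higher), where 22.7% of all tested genes changed, 9.92% lower and 12.7% higher. In controls 8 of the 20 changed (7 lower at day 14, 1 higher), where 42.5% of all tested genes did, 20.7% lower and 21.8% higher.

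**Figure D4:**
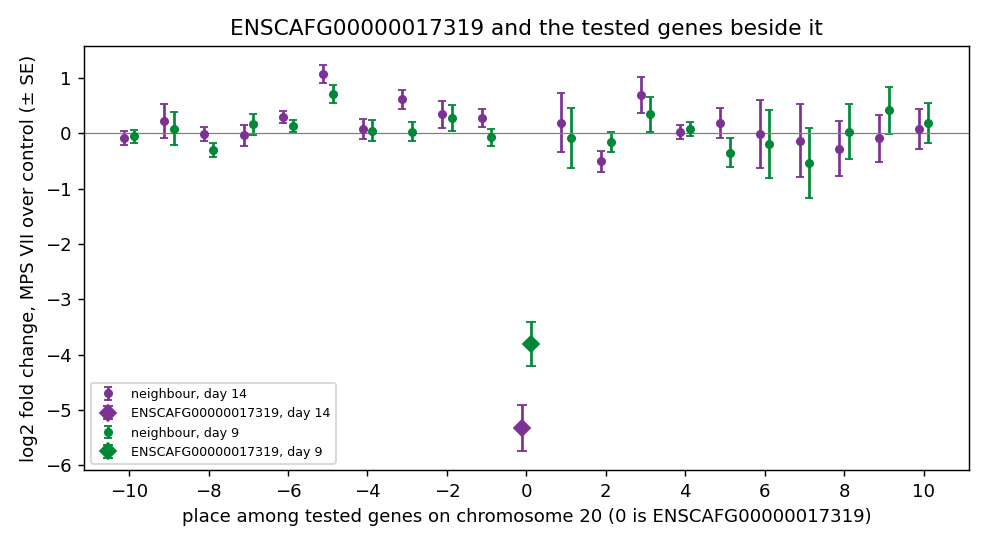
Log2 fold change of MPS VII over control (± SE) at day 14 and day 9 for ENSCAFG00000017319 at place 0 and for the 10 tested genes on each side of it, in order of position. The neighbours lie between -0.54 and 1.06, and ENSCAFG00000017319 at -5.32 for day 14 and -3.81 for day 9.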

How the data were processed

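Per the labels' protocols, stranded mRNA libraries were read as paired 100-base reads and mapped to CanFam3.1 with Ensembl build 77. STAR 2.4.0j, HTSeq and edgeR are listed in the submitters' processing notes. How strand and multiply mapped reads were treated is not given in the sources used here. The authors deposited raw counts per gene and library with exon positions, per the file headers, and 0 count columns belonged to no sample. Even numbers made up 65.2% to 76.4% of counts under 200, as when both mates are counted, so fits were repeated on halved counts.

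In edgeR 4.0.16 (R 4.3.3), filterByExpr kept 14550 genes and dropped 10030, which held 0.0413% of counts. With TMM scaling, 1 mean per group was fitted over 20 libraries, and quasi-likelihood p-values were adjusted by the Benjamini-Hochberg method across the 14550 genes. SE was taken as the log2 fold change over the root of its F statistic, and log2 CPM had a prior count of 2. No 2 libraries of a group agreed within sampling noise (40 pairs, lowest chi-square 16.7 per gene). Each library was taken as 1 animal, and the spread between animals limits the precision.

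The gene, the comparisons and the lists were chosen with earlier results of these data known. Genes are named by likeness (10 nearest and 3 farthest over all libraries, 5 and 3 inside groups, with at least 2 CPM in a group) and by position (3 nearest tested genes on each side, and any neighbour called for genotype). ENSCAFG00000002753 and the 3 genes on chromosome 32 met neither rule and were set beside the gene as other strongly changed genes. Lists of cell type markers could not be used without gene names. Scripts were tested on simulated data. Alternatives were median-ratio scaling, library sizes without the 20 most abundant genes, no filter, DESeq2 1.42.0, only the groups compared, halved counts, 5 or 20 neighbours on each side, Spearman's rho, a prior count of 0.5, and each library left out.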

Additional observations from a re-analysis of the deposited data

Results flagged for a closer look

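Within the groups of 5, the highest or lowest library was compared with its nearest neighbour relative to the range of the group (Dixon's ratio, critical value 0.71) for 32 genes named or compared, 128 groups in all. Of these 4 (3.12%) stood out, where chance gives about 1 in 20, and none was of ENSCAFG00000017319. Affected day 9 replicate 2 held 0.0835 CPM of the gene on chromosome 13 from 5552100, with 0 in the rest of its group, which is 2 counts in all. Affected day 9 replicate 3 held 424 CPM of ENSCAFG00000002753 against 286 CPM in the next library, and 60.0 CPM of the gene on chromosome 32 from 11051535 against 8.67 CPM in the next. Control day 14 replicate 4 held 5.53 CPM of the neighbour on chromosome 20 from 49625887, against 6.69 CPM in the next.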

How the results depend on the processing

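The 89 alternative values of the log2 fold changes of ENSCAFG00000017319 moved by less than 1 SD between replicates. Over all alternatives they ran from -5.67 to -5.20 for genotype at day 14, from -4.06 to -3.59 at day 9, from 1.34 to 1.73 for age in controls, from -0.32 to 0.26 for age in MPS VII and from -1.85 to -1.26 for the difference of the age changes. With 20 neighbours on each side, 8 were called for genotype at day 14, 2 at day 9, 10 with age in MPS VII and 20 with age in controls. The shares called over all tested genes were 22.0%, 8.38%, 22.7% and 42.5% in the same order. Halved counts called 4 of 20 neighbours at day 14, and a fit of the affected libraries alone called 2 with age. Over all tested genes these 2 fits called 3209 and 1466, and nothing is read from their neighbour counts. In each refit the neighbours were the nearest genes tested in that fit, so the list could change. With halved counts the first gene after ENSCAFG00000017319 was not tested. Leaving out 1 library, neighbours called ran from 2 to 5 with age in MPS VII (2 without affected day 14 replicate 3) and from 5 to 7 with age in controls. All tested genes called in those fits ran from 2227 to 3902 in MPS VII and from 5186 to 5911 in controls. Over all tested genes, DESeq2 called 938 for the difference of the age changes, against 474, and 199 to 759 were called with 1 library left out (199 without control day 14 replicate 4, 759 without affected day 9 replicate 3). Fits of 2 groups called 711 for genotype at day 9 and 1466 with age in MPS VII. Spearman's rho kept 4 of the 10 genes most like it and 2 of the 5 inside groups, and 2 to 5 of those 5 stayed with 1 library left out, 2 without affected day 9 replicate 3. Fold changes near 0, of neighbours not called at the age in question, changed sign with 1 library left out. The first gene after ENSCAFG00000017319 ran from -0.024 to 0.38 at day 14 and from -0.35 to 0.31 at day 9. At day 9 the first gene before it ran from -0.16 to 0.0084. The third before it, which was called at day 14, ran from -0.068 to 0.11 at day 9. The day 9 value of the gene on chromosome 32 from 11051535 turned from 1.39 to -0.44 without affected day 9 replicate 3, and passed the threshold in neither fit. The cause of these moves was not tested. No paired analysis was possible because the labels give no litter or replicate numbers. The replicate numbers used here were assigned within each group in the order in which the series lists its samples.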
